A study of Homo sapiens with 6 samples.

Results

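The genes described here are 10 integrin subunit genes of epithelial cells: 5 alpha subunits (ITGA2, ITGA3, ITGA5, ITGA6 and ITGAV) and 5 beta subunits (ITGB1, ITGB4, ITGB5, ITGB6 and ITGB8). They were chosen by name, and each was read by the probe sets that the platform annotation assigns to that gene alone. This gave 254 of 224320 such probe sets and 10 of 18656 genes. They were compared in AGS cells, an established human gastric adenocarcinoma line, between 3 arrays of cells transfected with an inhibitor of the microRNA miR-25-3p and 3 arrays of cells transfected with non-targeting control RNA. Both groups were transfected again after 24 h and harvested 48 h after the initial transfection. Every array is from this 1 cell line, and the labels give no other difference between the groups than the transfected oligonucleotide. Messenger RNA was read on Human Gene 1.0 ST arrays as log2 expression values. The labels call the arrays of each group biological replicates without saying whether they came from separate cultures, so p-values measure the spread between these arrays.

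Integrins are transmembrane receptors made of 1 alpha and 1 beta chain, which bind the extracellular matrix outside the cell and, through talin and kindlin, the actin cytoskeleton inside it. The alpha chain largely sets the ligand for ITGA2 (collagen), ITGA3 and ITGA6 (laminins) and ITGA5 (fibronectin). Receptors of ITGAV bind vitronectin with ITGB5 and latent TGF-beta with ITGB6 or ITGB8. ITGB1 pairs with many alpha chains, whereas ITGB4 pairs with ITGA6 alone and anchors hemidesmosomes to keratin filaments. MicroRNAs lower many of the messages whose 3′ ends pair with their seed. ITGA5 has been reported as a target of miR-92a in ovarian cancer cells, and ITGAV and ITGA6 as targets of miR-25 in prostate cancer cells.

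The microRNA sequences are shown because the reported links of these integrins to miR-25 come partly from relatives with the same seed. They are from RefSeq (GRCh38.p14), written 5′ to 3′, with the seed, bases 2 to 8, in capitals.
hsa-miR-25-3p: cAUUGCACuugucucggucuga
hsa-miR-92a-3p: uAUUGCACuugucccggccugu
hsa-miR-92b-3p: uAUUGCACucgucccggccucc
hsa-miR-32-5p: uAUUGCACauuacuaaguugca
hsa-miR-363-3p: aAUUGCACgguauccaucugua
hsa-miR-367-3p: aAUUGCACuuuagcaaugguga
All 6 are 22 bases long and share 1 seed. Position by position, miR-92a-3p has the same base as miR-25-3p at 18 positions, miR-92b-3p at 16 and miR-32-5p at 13. miR-367-3p shares 12 and miR-363-3p 9. The mature miR-25-3p lies at chr7:100093571-100093592 on the minus strand, inside the MCM7 gene. Mature microRNAs were not among the values analysed here, so the arrays hold no direct check that the inhibitor acted. Pairing sites in the integrin messages were not examined.

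None of the 10 integrin genes passed the threshold of an adjusted p of 0.05 in limma, which called 0 of 18656 genes (0% of all). ITGB4 and ITGA5 lay lowest in the inhibitor arrays, with log2 changes of -0.28 and -0.25, which correspond to 0.821-fold and 0.842-fold of control. ITGB8 had the highest estimate, 0.14. The other 7 genes lay between -0.16 and 0.092. At an unadjusted p under 0.05, 2 of the 10 members lay lower and 0 higher, where 3.16% of all genes lay lower and 2.95% higher, 6.12% (1141 genes) in all. The same 2 members, ITGB4 and ITGA5, were those whose groups of arrays did not overlap, where 7.68% of all genes lay wholly below the controls and 5.2% wholly above, 12.9% in all. Changes were negative for 4 of the 10 members and for 49.5% of all genes. The median change was 0.018 over the 10 members and 0.0021 over all genes. Adjusted p-values of the members ran from 0.79 to 0.98. In bulk RNA of this kind, fewer cells that carry a message and less of it per cell cannot be told apart.

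**Figure D1:**
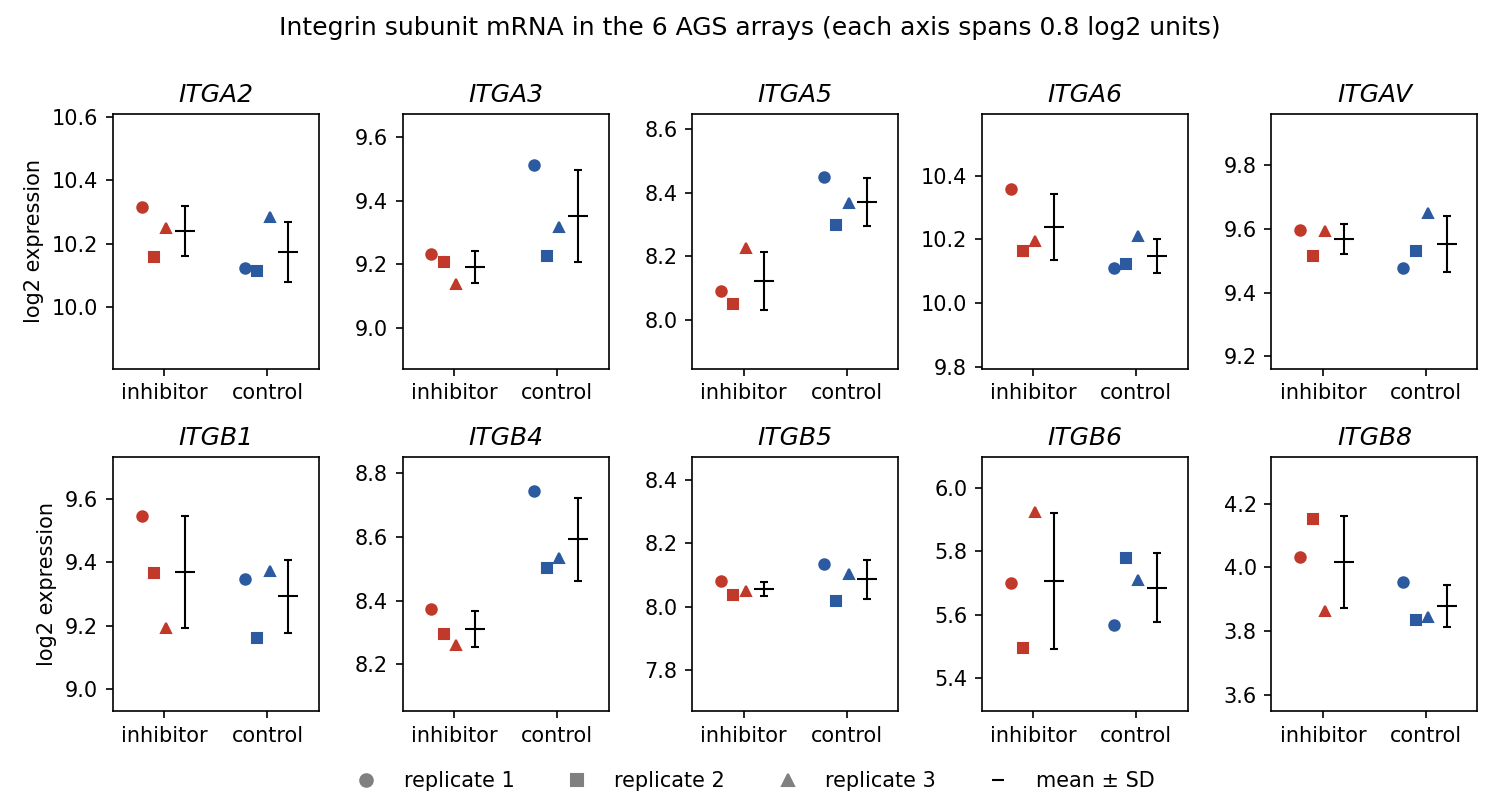
Log2 expression of each integrin subunit gene in the 3 inhibitor arrays (red, left) and the 3 control arrays (blue, right), with the mean ± SD of each group in black. Symbols mark the replicate number and each axis spans 0.8 log2 units. ITGA5 and ITGB4 are the 2 genes whose groups do not overlap.

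The cells carried epithelial messages, and 3 arrays a group set the precision of each comparison. The 10 markers of simple epithelium averaged 9.04 to 9.09 in the inhibitor arrays and 9.02 to 9.06 in the control arrays, led by KRT8. The E-cadherin gene CDH1 was the dimmest of them, at 6.11 in inhibitor and 6.10 in control arrays. CLDN3 was at 6.39 and 6.31, and the median over all genes was 5.77. Of the 10 measured gastric lineage markers, CTSE was bright, at 11.91 in inhibitor and 11.93 in control arrays, but the gastrokines GKN1 and GKN2 were dim, at 2.55 and 2.28 in the inhibitor arrays. Markers of other cell types averaged 4.18 to 4.28 in inhibitor and 4.16 to 4.29 in control arrays for 8 fibroblast genes. Endothelial markers (6 genes) averaged 3.81 to 3.84 in inhibitor and 3.86 to 4.03 in control arrays, and leukocyte markers (7 genes) 4.75 to 4.81 in inhibitor and 4.68 to 4.82 in control arrays. A few single markers of these types were brighter, such as LYZ at 8.79 in inhibitor and 8.84 in control arrays. Of these 8, 6 and 7 markers, 1 lay higher and 1 lower at an unadjusted p under 0.05 in limma. Over all genes 2.95% lay higher and 3.16% lower at that p. The 2 markers, CD14 and PECAM1, were dim and read by 5 and 4 probe sets. ACTA2 (change -0.15) and CD68 (-0.11) lay wholly below the controls in the inhibitor arrays, where 7.68% of all genes did. CD14 alone of these markers lay wholly above the controls, where 5.2% of all genes did. So did 1 of the 10 epithelial markers, EPCAM (change 0.21). Of the 10 gastric markers 2 lay wholly below the controls, MUC1 (-0.19) and CLDN18 (-0.23). The monocyte marker CD14 had 5.00, 4.68 and 4.45 in the inhibitor arrays against 4.33, 4.39 and 4.03 in the control arrays, without overlap (log2 change 0.46, SE 0.16, adjusted p 0.79 in limma). The endothelial marker PECAM1 had 3.04, 2.98 and 3.44 in the inhibitor arrays against 3.87, 3.62 and 3.33 in the control arrays, with overlap (change -0.46, SE 0.17, adjusted p 0.79). Both changes were larger in size than that of any of the 10 integrin genes, and their part in the integrin values was not tested. Control replicate 1 was least like the others: its correlation across genes with them averaged 0.9915, and that of every other array at least 0.9933.

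ITGA5, the alpha chain of the fibronectin receptor, lies at chr12:54395261-54419266 (GRCh38.p14). It had log2 values of 8.09, 8.05 and 8.23 in inhibitor replicates 1, 2 and 3, against 8.45, 8.30 and 8.37 in the control replicates. The highest inhibitor array thus stayed below the lowest control array. The means were 8.12 ± 0.091 in inhibitor and 8.37 ± 0.076 in control arrays (SD, n = 3 each). The log2 change of -0.25 (SE 0.092) had a 95% confidence interval of -0.46 to -0.038, with an unadjusted p of 0.026 and an adjusted p of 0.79 in limma. The unadjusted p stayed under 0.05 in 10 of 16 alternative settings. Of its 30 probe sets, 28 were negative, where 50.3% of all probe sets were, and the median was -0.20. Probe sets of 1 gene read the same message and are not independent replicates.

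Among the ITGA5 probe sets, 2 had an unadjusted p under 0.05, and they pointed in opposite directions. Probe set 7963805 had 7.71, 7.82 and 7.98 in the inhibitor arrays against 8.62, 8.49 and 8.85 in the control arrays, a change of -0.82 (SE 0.16). Probe set 7963802 had 6.60, 6.63 and 6.55 in the inhibitor arrays against 6.27, 6.13 and 5.91 in the control arrays, a change of 0.49 (SE 0.15). Neither passed adjustment over all probe sets, at adjusted p = 0.76 and 0.79 in limma. The brightest ITGA5 probe set had a smaller change, -0.15, and its groups overlapped.

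ITGAV, the alpha chain of the vitronectin receptors and of the activators of latent TGF-beta, lies at chr2:186590056-186680901. It had 9.60, 9.51 and 9.59 in the inhibitor arrays, against 9.48, 9.53 and 9.65 in the control arrays. All 3 inhibitor values lay within the range of the controls. The means were 9.57 ± 0.047 in inhibitor and 9.55 ± 0.088 in control arrays (SD, n = 3 each). The log2 change was 0.015 (SE 0.089), with a 95% confidence interval of -0.19 to 0.22, or 0.878-fold to 1.16-fold of control. Of its 33 probe sets 19 were positive and 14 negative. Probe set 8046863, the only one with an unadjusted p under 0.05, had a change of -0.46 (SE 0.16, adjusted p 0.80 in limma). The sign of the ITGAV estimate turned without control replicate 1, at -0.023.

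The beta chains that pair with ITGAV differed little between the groups relative to their spread. ITGB5, a vitronectin receptor chain, had 8.08, 8.04 and 8.05 in the inhibitor arrays, against 8.14, 8.02 and 8.10 in the control arrays. It had the smallest spread within groups of the 10 genes, a pooled SD of 0.046, and a log2 change of -0.031 (SE 0.084). Its probe set of smallest p, 8090165, read 6.45, 5.77 and 4.65 in the inhibitor arrays against 7.06, 6.37 and 6.62 in the control arrays, with overlap and a change of -1.06 (SE 0.47, unadjusted p 0.067, adjusted p 0.81 in limma). Inhibitor replicate 3 was the lowest array there. ITGB6, an epithelial chain that binds latent TGF-beta, had 5.70, 5.50 and 5.92 in the inhibitor arrays, against 5.57, 5.78 and 5.71 in the control arrays. Its pooled SD of 0.17 was the largest of the 10, the inhibitor arrays lay on both sides of the controls, and the change was 0.021 (SE 0.12).

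The brightest of the 16 ITGB6 probe sets, 8056198, departed from the gene's mean. It read 7.37, 7.03 and 7.62 in the inhibitor arrays against 7.91, 7.93 and 7.72 in the control arrays, a change of -0.51 (SE 0.19, adjusted p 0.80 in limma). The ITGB6 estimate therefore has no settled sign.

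ITGB8, which holds latent TGF-beta at the cell surface, was dim, at 4.03, 4.15 and 3.86 in the inhibitor arrays against 3.95, 3.83 and 3.85 in the control arrays. Inhibitor replicate 3 overlapped the controls, and the log2 change was 0.14 (SE 0.10, unadjusted p 0.21, adjusted p 0.82 in limma). It was 0.071 without inhibitor replicate 2 and 0.22 without inhibitor replicate 3. Of its 15 probe sets 9 were positive and 6 negative. Probe set 8131668 read 6.92, 6.72 and 6.24 in the inhibitor arrays against 5.69, 6.08 and 5.44 in the control arrays, a change of 0.89 (SE 0.26). Probe set 8131667 had 0.91 (SE 0.34) at levels of 1.46 to 3.36, near the bottom of the scale. The brightest ITGB8 probe set had -0.42, opposite to the gene's mean.

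ITGB1, the beta chain shared by the collagen, laminin and fibronectin receptors of this set, had 9.55, 9.37 and 9.19 in the inhibitor arrays. The control arrays had 9.35, 9.16 and 9.37, and the groups overlapped. The log2 change was 0.075 (SE 0.11), with a 95% confidence interval of -0.19 to 0.34. Its 16 probe sets split evenly, 8 positive and 8 negative, with a median of 0.0033. The brightest read 12.48, 12.54 and 12.52 in the inhibitor arrays against 12.50, 12.46 and 12.54 in the control arrays. A probe set far down the scale, 7932968, had the largest change of all 254, 1.56 (SE 0.45, adjusted p 0.78 in limma), at 3.62, 2.64 and 2.47 in the inhibitor arrays against 2.13, 0.86 and 1.05 in the control arrays. Without the dimmest 30% of probe sets the ITGB1 estimate was -0.024.

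**Figure D2:**
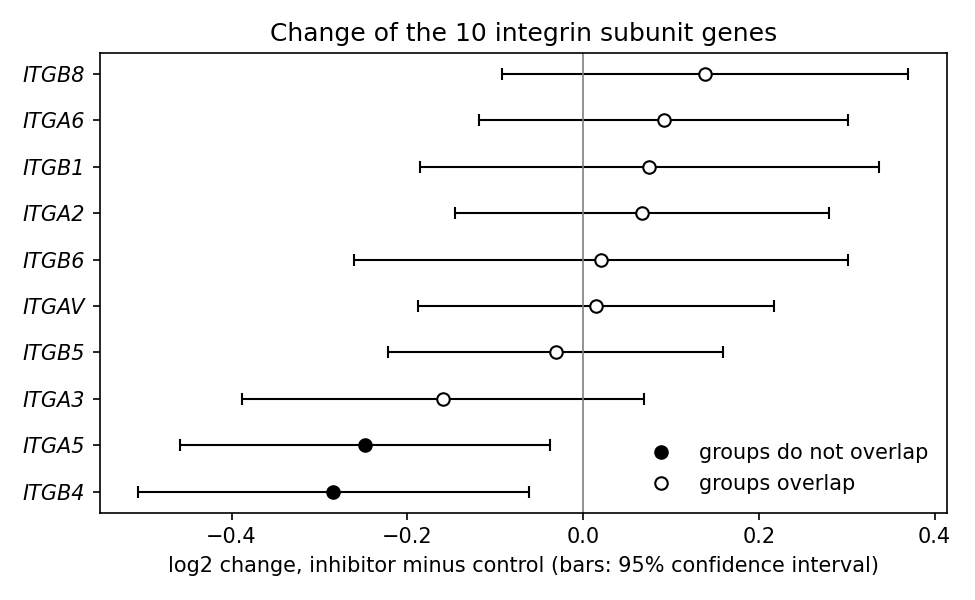
Log2 change (inhibitor minus control, horizontal axis) of the 10 genes with 95% confidence intervals from limma, not adjusted for the number of genes. Filled points mark genes whose 3 inhibitor and 3 control arrays do not overlap. The intervals of ITGB4 and ITGA5 lie below 0 and the other 8 include 0.

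Among the laminin receptor genes, ITGB4 lay lower in the inhibitor arrays, ITGA3 had an estimate in the same direction and ITGA6 one in the opposite direction. ITGB4, the hemidesmosome chain, at chr17:75721459-75757818, had 8.37, 8.29 and 8.26 in inhibitor replicates 1, 2 and 3. The controls had 8.74, 8.50 and 8.53, all above the inhibitor arrays. The means were 8.31 ± 0.057 in inhibitor and 8.59 ± 0.13 in control arrays (SD, n = 3 each). The log2 change was -0.28 (SE 0.098), with a 95% confidence interval of -0.51 to -0.062, an unadjusted p of 0.018 and an adjusted p of 0.79 in limma. Without control replicate 1, the highest ITGB4 array and the one least like the others, the change was -0.21 with an unadjusted p of 0.047. Without inhibitor replicate 3 that p was 0.056. ITGA5 without control replicate 1 had -0.21 with an unadjusted p of 0.063.

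The ITGB4 probe sets were the most one-sided of the 10 genes: 41 of 43 were negative, where 50.3% of all probe sets were. The median of the 43 was -0.29 and their range -0.74 to 0.087. Like those of ITGA5, they read the same message and are not independent replicates. In 12 of the 43 the inhibitor arrays lay wholly below the controls and in 0 wholly above, where 6.32% and 5.89% of all probe sets did so. An unadjusted p under 0.05 was reached by 6, all negative, where 3.09% of all probe sets lay lower at that p. Of these 6, probe set 8009955 had the largest change, reading 9.34, 9.39 and 8.63 in the inhibitor arrays against 10.03, 9.71 and 9.83 in the control arrays. Probe set 8009991 had the tightest inhibitor arrays of the 6, at 9.45, 9.50 and 9.52 against 10.07, 9.77 and 9.81 in the control arrays. The other 4 were 8009964 with a change of -0.43 (SE 0.16), 8009969 with -0.35 (SE 0.14), 8009971 with -0.41 (SE 0.15) and 8009976 with -0.59 (SE 0.21). Of these 4, the groups overlapped for 8009976 alone. The highest estimate was that of the brightest probe set, 8009952, with 12.25, 12.08 and 11.91 in the inhibitor arrays against 12.04, 12.13 and 11.81 in the control arrays. Used alone it would turn the ITGB4 estimate to 0.087.

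ITGA3, whose product binds laminin with ITGB1, had 9.23, 9.21 and 9.14 in the inhibitor arrays, against 9.51, 9.23 and 9.32 in the control arrays. Only inhibitor replicate 1 and control replicate 2 overlapped, narrowly, and control replicate 1 was again the highest. The log2 change was -0.16 (SE 0.10, unadjusted p 0.15, adjusted p 0.80 in limma), and -0.079 without control replicate 1. Of its 25 probe sets 20 were negative, where 50.3% of all probe sets were. Probe set 8008250 read 8.78, 8.47 and 7.92 in the inhibitor arrays against 9.34, 8.91 and 9.00 in the control arrays.

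ITGA6, the laminin-binding partner of ITGB4 and ITGB1, had 10.36, 10.16 and 10.20 in the inhibitor arrays, against 10.11, 10.12 and 10.21 in the control arrays. Inhibitor replicate 1 was the highest array and the other inhibitor arrays lay within the range of the controls. The log2 change was 0.092 (SE 0.092), with a 95% confidence interval of -0.12 to 0.30, and was 0.032 without inhibitor replicate 1. Without the dimmest 30% of probe sets it was 0.038. Its 27 probe sets ranged from -1.11 to 1.48, with 18 positive. Probe set 8046391 read 9.95, 9.88 and 9.65 in the inhibitor arrays against 9.34, 8.81 and 9.10 in the control arrays, a change of 0.74 (SE 0.19, adjusted p 0.78 in limma). Probe set 8046402 had 1.48 (SE 0.39) but was dim, at 3.56 on average in the control arrays. The messages of ITGA6 and several other integrins are spliced in alternative forms. Which exon a probe set reads is not in the annotation used here.

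ITGA2, the collagen-binding alpha chain, had 10.32, 10.16 and 10.25 in the inhibitor arrays, against 10.12, 10.12 and 10.28 in the control arrays. The groups overlapped, with a log2 change of 0.067 (SE 0.093) and a 95% confidence interval of -0.15 to 0.28. Of its 32 probe sets 22 were positive and none had an unadjusted p under 0.05. The smallest p belonged to probe set 8105284, at 11.71, 11.71 and 11.68 in the inhibitor arrays against 11.34, 11.46 and 11.47 in the control arrays (change 0.28, SE 0.13, adjusted p 0.82 in limma).

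**Figure D3:**
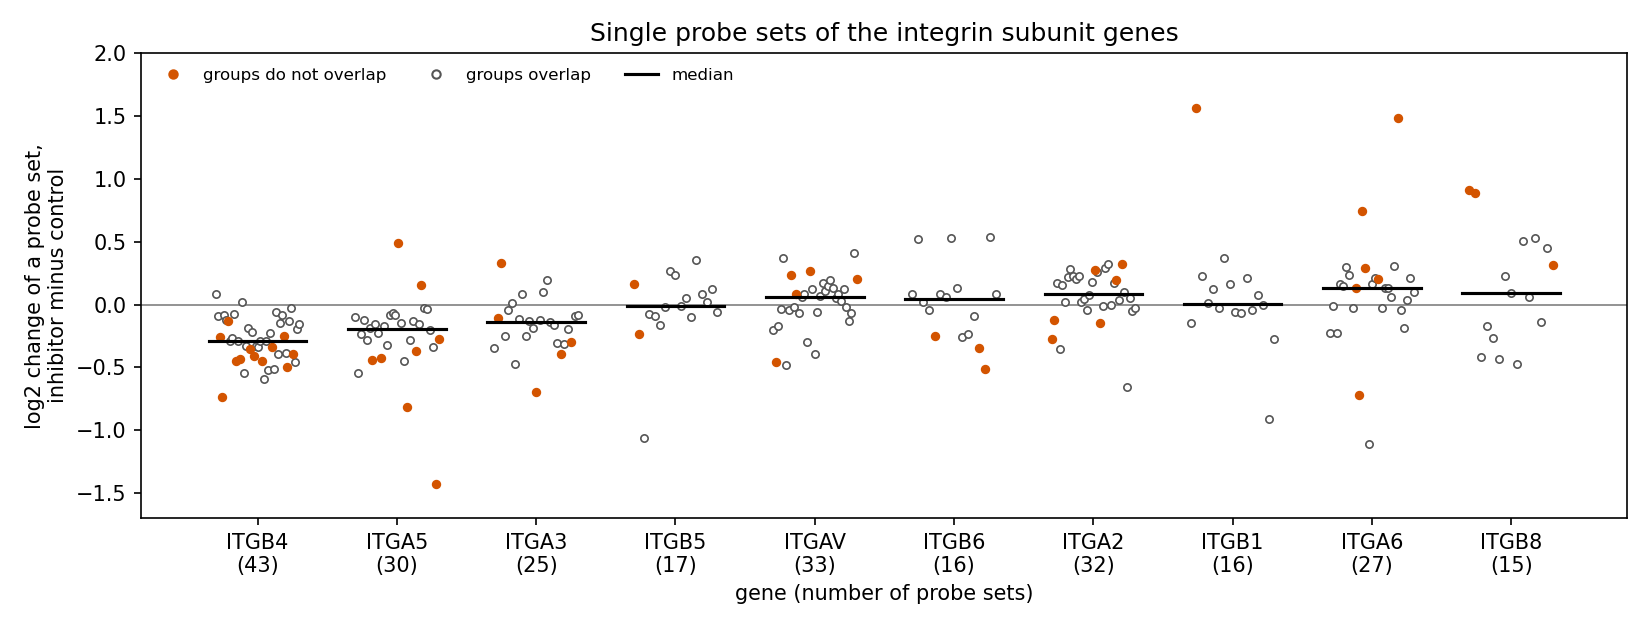
Log2 change (inhibitor minus control) of each of the 254 probe sets of the 10 genes, ordered from the lowest to the highest gene estimate, with the median as a black line. Filled orange points are probe sets whose groups of arrays do not overlap. The probe sets of ITGB4, ITGA5 and ITGA3 lie mostly below 0 and those of the genes from ITGB5 to ITGB8 on both sides of it.

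Over the 254 probe sets, 16 (6.3%) had an unadjusted p under 0.05, against 6.21% of all 224320 probe sets. The members' share is thus near the background. Of the 16, 10 lay lower (3.09% of all probe sets) and 6 higher (3.11% of all), and the smallest adjusted p was 0.76 in limma, which called 0 of all probe sets (13921 at an unadjusted p under 0.05). Groups did not overlap for 20.1% of the members' probe sets, against 12.2% of all. Of the 51 member probe sets without overlap, 31 were lower (6.32% of all probe sets) and 20 higher (5.89% of all). ITGB4 held 12 of the lower ones and ITGA5 6, while ITGA6 held the most of the higher ones, 5. Since probe sets of 1 gene are not independent, the 20.1% is not a share of separate genes.

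The 10 genes did not vary together across the arrays. Control replicate 1 held the highest value of ITGA3, ITGA5, ITGB4 and ITGB5 and the lowest of ITGA6 and ITGAV. Inhibitor replicate 1 held the highest value of ITGA2, ITGA6 and ITGB1. As a measure of likeness, the root mean square difference between the mean-centred log2 values of a pair of genes over the 6 arrays was used. The most alike pairs were ITGA2 with ITGA6 (0.039) and ITGA2 with ITGAV (0.040), and ITGB4 was nearest to ITGA3 (0.067) and ITGA5 (0.087). The least alike pair was ITGB4 with ITGB6 (0.25). Each value rests on the same 6 arrays and is a description without a test.

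Among all other genes, those most like ITGA5 by this measure were LIMK1, a kinase that inactivates cofilin (0.026), the semaphorin receptor gene PLXNA2 (0.028) and the helicase gene DHX34 (0.030). PLXNA2 had 6.22, 6.24 and 6.36 in the inhibitor arrays against 6.64, 6.48 and 6.49 in the control arrays. Lower values in the inhibitor arrays follow from the choice by likeness to ITGA5 and are no separate result. In all, 1485 genes had a change at least as large in size as that of ITGA5. Those most like ITGAV were TSR1, a factor of ribosome assembly, KIF5B, a kinesin heavy chain, and the transcription factor gene ATMIN, each at 0.020. ITGAV itself departed from its mean by only 0.058, so many genes of small spread lie near it.

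The balance of receptor partners was compared as the alpha minus the beta log2 value within each array, for 9 pairs known to form receptors. A change of this difference shows that the partners changed unequally, not which of them changed. The exact two-sided permutation test of 3 against 3 arrays cannot give a p below 0.1. For ITGA6 with ITGB4, the difference relative to the control mean was 0.43, 0.31 and 0.38 in the inhibitor arrays, against -0.19, 0.064 and 0.12 in the control arrays. The groups did not overlap, with a mean shift of 0.38 (exact p = 0.1, adjusted over 9 pairs 0.45). This shift is the ITGA6 change of 0.092 minus the ITGB4 change of -0.28, so it repeats values given above. The shift of every pair is likewise made of changes already given and is no separate result. Taken from the brightest probe sets alone, the shift was -0.13.

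For ITGA3 with ITGB1 the difference was -0.37, -0.22 and -0.12 in the inhibitor arrays, against 0.11, 0.0062 and -0.11 in the control arrays. The shift was -0.23 (exact p = 0.1, adjusted 0.45), and the nearest arrays of the groups almost touched. For ITGA5 with ITGB1 it was -0.53, -0.39 and -0.047 in the inhibitor arrays, against 0.024, 0.058 and -0.082 in the control arrays. Inhibitor replicate 3 overlapped the controls there, with a shift of -0.32 (exact p = 0.2, adjusted 0.6). The other 6 pairs overlapped, with shifts from -0.12 for ITGAV with ITGB8 to 0.046 for ITGAV with ITGB5 and exact p-values from 0.5 to 0.9. With 3 arrays a group no pair could reach 0.05, and the pairs were chosen after the members' values were seen.

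**Figure D4:**
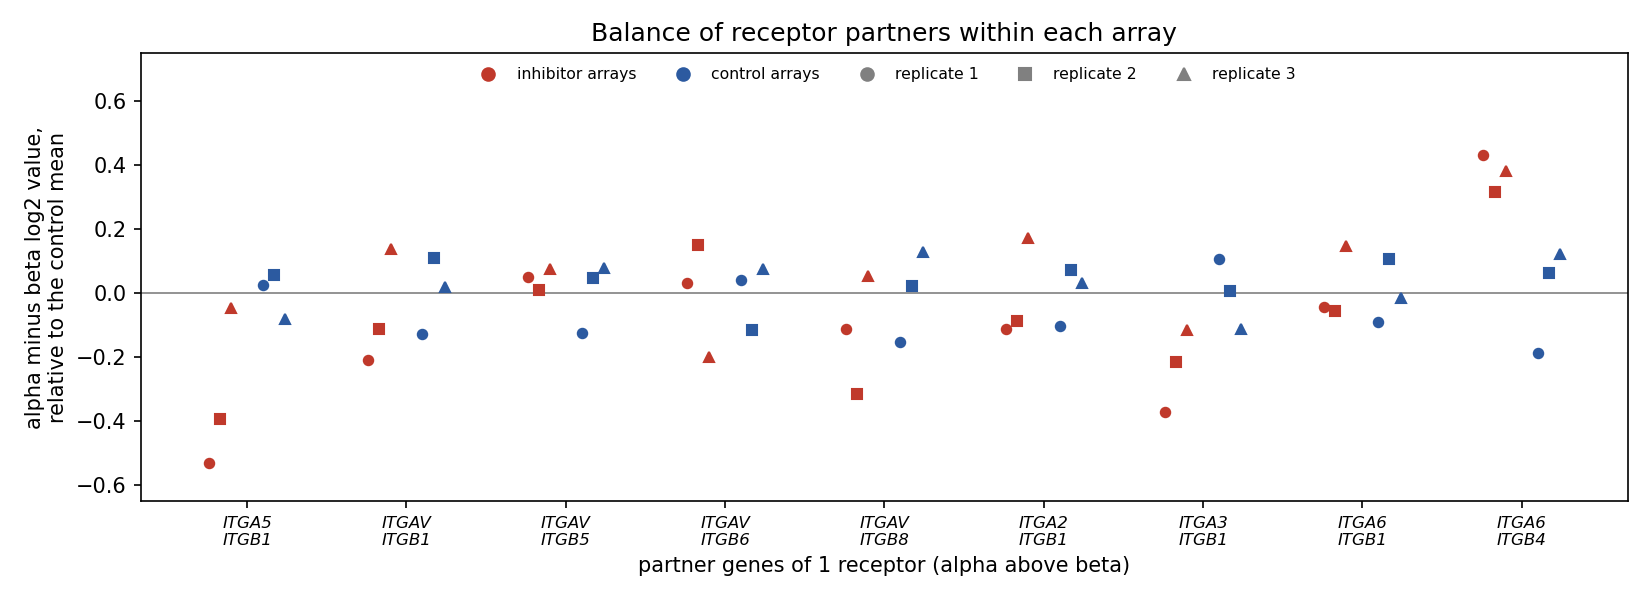
Alpha minus beta log2 value within each array for 9 receptor pairs, relative to the mean of the control arrays, for the 3 inhibitor arrays (red, left) and the 3 control arrays (blue, right), with symbols for the replicate number. The groups do not overlap for ITGA6 with ITGB4 and for ITGA3 with ITGB1.

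The 16 other integrin subunits were dim, between 2.96 and 4.91 on average per gene, and none passed the threshold. Of these, 6 had positive and 10 negative changes, with a median of -0.013 and no gene whose groups did not overlap. Over all genes 0% passed, 49.5% of changes were negative and the groups did not overlap for 12.9%. The platelet chain ITGA2B had -0.25 (SE 0.13) and the collagen receptor chain ITGA1 -0.21 (SE 0.14). On the other side were the leukocyte chains ITGA4 at 0.12 (SE 0.15) and ITGB7 at 0.099 (SE 0.11). These estimates moved widely when 1 array was left out, between -0.35 and -0.12 for ITGA2B, -0.36 and -0.088 for ITGA1, 0.011 and 0.30 for ITGA4, and 0.025 and 0.21 for ITGB7. Without the dimmest 30% of probe sets ITGA1 had -0.027, ITGA2B -0.10 and ITGA4 0.31. ITGB3, the other vitronectin receptor partner of ITGAV, was at 3.68 ± 0.26 in inhibitor and 3.59 ± 0.055 in control arrays (SD, n = 3 each).

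Of 24 measured ligand genes, 0 passed the threshold, 8 had positive and 16 negative changes, and the median was -0.063 against 0.0021 over all genes. Over all genes 49.5% of changes were negative. The groups did not overlap for 4 of the ligand genes, all lower, where 7.68% of all genes lay wholly below the controls. Of these 4, CCN1 and COL4A1 had an unadjusted p under 0.05, where 3.16% of all genes lay lower at that p. CCN1, a matricellular ligand of ITGAV and ITGA6 receptors, had 5.59, 5.66 and 5.39 in the inhibitor arrays, against 5.90, 5.78 and 5.98 in the control arrays (log2 change -0.34, SE 0.11, adjusted p 0.79 in limma). COL4A1, a basement membrane collagen chain, had 6.61, 6.48 and 6.47 in the inhibitor arrays, against 6.81, 6.73 and 6.69 in the control arrays (change -0.23, SE 0.089, adjusted p 0.79). The positive side was led by COL4A5 at 0.11 (SE 0.097) and COL1A2 at 0.086 (SE 0.11). FN1, the ligand of the ITGA5 receptor, was dim, at 3.49 ± 0.15 in inhibitor and 3.42 ± 0.30 in control arrays (SD, n = 3 each), so its difference of 0.072 lies within the spread.

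Of 38 measured genes of the adhesome, the adaptors and kinases that join integrins to actin, 0 passed the threshold. Changes were positive for 14 and negative for 24, with a median of -0.051, where 49.5% of all changes were negative. The groups did not overlap for 2 higher and 6 lower genes, where 5.2% of all genes lay wholly above the controls and 7.68% wholly below. LIMS1 encodes PINCH1, which binds integrin-linked kinase. It had 9.19, 9.20 and 9.18 in the inhibitor arrays, against 8.85, 8.95 and 8.98 in the control arrays, on 4 probe sets (change 0.26, SE 0.084, adjusted p 0.79 in limma). LIMS1 has near-identical copies in the genome, so its value is uncertain. TGFB1I1, the paxillin relative Hic-5, had 5.06, 4.95 and 5.03 in the inhibitor arrays, against 4.89, 4.64 and 4.80 in the control arrays (change 0.24, SE 0.096, adjusted p 0.79).

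The adhesome genes with the smallest p on the negative side were SHARPIN, an inhibitor of integrin activation, at -0.18 (SE 0.089), and PXN, the focal adhesion adaptor paxillin, at -0.17 (SE 0.087). Both had non-overlapping groups and adjusted p = 0.79. The talin gene TLN1 had -0.18 (SE 0.095) with overlapping groups, and the kinase genes ILK and PTK2 had 0.017 (SE 0.10) and -0.042 (SE 0.095).

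Among 12 hemidesmosome and tetraspanin genes, which include the partners of ITGB4, 3 changes were positive and 9 negative, with a median of -0.055. Over all genes 49.5% of changes were negative, with a median of 0.0021. The groups did not overlap for 1 of the 12, CD82, which was lower, where 7.68% of all genes lay wholly below the controls. Of the 12, 0 passed the threshold. KRT5, a basal keratin, had -0.26 (SE 0.13) at a low level, 4.09 ± 0.19 in inhibitor and 4.35 ± 0.16 in control arrays (SD, n = 3 each). The tetraspanin gene CD82 had 6.23, 6.39 and 6.35 in the inhibitor arrays, against 6.46, 6.56 and 6.45 in the control arrays, without overlap (change -0.17, SE 0.090, adjusted p 0.79 in limma). The positive side held the plakin gene DST at 0.096 (SE 0.11) and TSPAN4 at 0.065 (SE 0.091). PLEC, which links ITGB4 to keratins, had -0.074 (SE 0.088) and COL17A1, the hemidesmosomal collagen, -0.022 (SE 0.084).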

How the data were processed

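The deposited table holds log2 values for 257430 probe sets in 6 arrays. The submitters' processing notes name Transcriptome Analysis Console, RMA and Affymetrix Expression Console as the authors' tools; their versions and settings are not given in the sources used here. Cell RNA (500 ng per sample) was labelled with biotin, per the labels' protocols. RMA makes array distributions nearly equal and hides any shift common to most genes. Column medians were 6.02 to 6.07.

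A gene's value was the mean log2 over the probe sets naming it alone. Older symbols were updated through the RefSeq table of GRCh38.p14, which also gave the coordinates. Some genes of the lists were not analysed here. The groups were compared with lmFit and eBayes of limma 3.58.1 under R 4.3.3, with Benjamini-Hochberg adjustment over all 18656 genes or 224320 probe sets and a threshold of 0.05. Partner differences were tested by exact permutation. In 20 simulations of these 18656 genes, 200 genes were given a change. Of changes of 0.3 on the log2 scale 0.3% were recovered, of 0.5 19.4% and of 1 90.8%. The share recovered depends on the number of changed genes, which was set and not taken from the data. Under that setting, changes of the size seen here would mostly be missed.

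Members and gene lists were chosen with earlier results of these data known, and the partner pairs after the members' values were seen. The text names all 10 members, of each pathway list the 2 positive and 2 negative genes of smallest p, the 3 genes most like ITGA5 and like ITGAV, and member probe sets with an unadjusted p under 0.05 or else the smallest. The brightest probe sets and the remaining genes given (CTSE, GKN1, GKN2, LYZ, CD14, PECAM1, ACTA2, CD68, KRT8, ITGB3, FN1, TLN1, ILK, PTK2, PLEC and COL17A1) were chosen after their values were seen. The same holds for CDH1, CLDN3, EPCAM, MUC1 and CLDN18. Alternatives covered the replicate block, each array left out, 2 normalizations, 2 filters on dim values, 2 variance estimates, array weights, and the median or the brightest of a gene's probe sets in place of the mean.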

Additional observations from a re-analysis of the deposited data

How the results depend on the processing

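limma called 0 members in each of the 16 alternatives and 0 genes in 15 of them; leaving out arrays gave 0 to 1 called genes, the 1 without control replicate 3. No member or other named gene passed the threshold in any alternative. With the replicate block, 0 genes and 0 members were called, 2 members had an unadjusted p under 0.05 and no estimate of a member moved. The numbers were not taken as pairs, since the labels give no pairing beyond a number. Deviations of same-numbered arrays correlated at -0.032, -0.040 and 0.17 across genes, and those of unlike-numbered arrays at -0.21 to 0.21. The 2 members at an unadjusted p under 0.05 became 1 with the median of probe sets (ITGB4) and 1 with the brightest probe set (ITGB6), and 1 to 2 when 1 array was left out. The 2 members without overlap became 3 with median centring, 1 with the brightest probe set and 2 to 4 when 1 array was left out, where groups of 3 against 2 overlap less often: 3947 to 4661 genes then did not. Of 159 member estimates under the alternatives, 15 turned sign, over 7 members.

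The median change of the 10 members turned to -0.059 with the median of probe sets, -0.047 with the brightest and -0.026 without the dimmest 30% of probe sets, and ranged from -0.015 to 0.056 leaving out arrays. Without the dimmest 30% of probe sets, ITGB1 had -0.024, ITGB6 -0.029 and ITGB7 -0.18. With the median of probe sets, ITGA2 had -0.028, ITGAV -0.090, TSPAN4 -0.12 and ATMIN -0.0083. With the brightest probe set, ITGA2 had -0.013, ITGA6 -0.047, ITGAV -0.020, ITGB4 0.087, ITGB6 -0.51, ITGB8 -0.42, COL1A2 -0.11 and KRT5 0.16. Array weights gave ITGB6 -0.043 and ATMIN -0.0063, quantile normalization ATMIN -0.0036 and median centring TSR1 0.0015. When 1 array was left out, ITGAV ranged from -0.023 to 0.063, ITGB1 from -0.013 to 0.16, ITGB6 from -0.088 to 0.13, COL1A2 from -0.00090 to 0.15, TSR1 from -0.028 to 0.032, KIF5B from -0.0022 to 0.076 and ATMIN from -0.046 to 0.065. The other members kept their sign, with ITGA2 from 0.030 to 0.12, ITGA3 from -0.22 to -0.079, ITGA5 from -0.30 to -0.21, ITGA6 from 0.032 to 0.13, ITGB4 from -0.33 to -0.21, ITGB5 from -0.065 to -0.0064 and ITGB8 from 0.071 to 0.22. The ITGAV sign turned without control replicate 1, that of ITGB1 without inhibitor replicate 1, and that of ITGB6 without control replicate 1 or inhibitor replicate 3.

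The partner balance of ITGA6 with ITGB4 turned to -0.13 with the brightest probe set. With it, ITGAV with ITGB6 had 0.49, ITGAV with ITGB8 0.40 and ITGA6 with ITGB1 -0.060, the last -0.025 with the median. Without the dimmest 30% of probe sets, ITGAV with ITGB1 had 0.039, ITGAV with ITGB6 0.043 and ITGA2 with ITGB1 0.091. Leaving out arrays, the shift ranged from -0.16 to 0.013 for ITGAV with ITGB1, -0.017 to 0.085 with ITGB5 and -0.084 to 0.090 with ITGB6, and with ITGB1 from -0.099 to 0.043 for ITGA2 and -0.049 to 0.069 for ITGA6. ITGA3 with ITGB1 kept its sign, but its shift was -0.060 with the brightest probe set (exact permutation p = 0.6). Its exact p was 0.2 with quantile normalization and 0.3 with the median of probe sets or without the dimmest 30% of them. The alternatives of the partner balance were chosen after seeing the data. The cause of these turns was not tested. ITGB8 and 30% of all genes were not in the fit without the dimmest genes.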
